A study of Mus musculus with 8 samples.

Results

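The MS4A family encodes small membrane proteins that cross the membrane several times and sit at the cell surface or in endosomes, many of them beside immune receptors. Its best known member is CD20, the product of Ms4a1 in B cells. In T cells the product of Ms4a4b associates with the costimulatory receptor GITR and restrains proliferation, and transcripts of Ms4a4b and Ms4a6b are known to accumulate as single-positive thymocytes mature towards export. This account follows 6 of these genes, Ms4a4b, Ms4a4c, Ms4a4d, Ms4a6b, Ms4a6c and Ms4a6d, in CD4 single-positive (CD4SP) thymocytes sorted from mice of C57BL/6 background. They were picked by name out of 22180 genes with a probe set of 1 gene symbol, and each of the 6 had 1 such probe set.

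The comparison set 4 arrays labelled Pggt1b_KO (KO) against 4 labelled WT. Pggt1b encodes the catalytic subunit of the enzyme GGTase-I, which attaches a lipid of the mevalonate pathway to small GTPases, and the series asks how this step bears on the exit of thymocytes. The labels do not state which part of Pggt1b was deleted and by what driver, the age and sex of the mice, or whether each array stands for its own animal. The p-values therefore measure the spread between these samples, which may be technical. Values are log2 intensities after RMA, the authors' background correction, quantile normalization and summary per probe set.

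The targeted gene stood at 7.89, 7.57, 7.69 and 7.86 log2 in the KO arrays, against 8.35, 8.38, 8.29 and 8.36 in the WT arrays. Every KO array lay below every WT array, as for 13.5% of all tested genes. The difference was -0.59 ± 0.072 SE, a change of -33.7% (limma, Benjamini-Hochberg adjusted p = 0.00141). Cd4 averaged 12.26 log2 in KO and 12.27 in WT, and Cd3e 12.47 in KO and 12.50 in WT. Of 9 tested T cell markers 0 changed (limma, 1 at an unadjusted p under 0.05), and their mean level ran from 11.30 to 11.36 in KO and from 11.39 to 11.41 in WT. A gene was tested where its mean over the 8 arrays reached 5.56 log2, the median of all probe sets. Of 11585 tested genes, 13.0% changed at an adjusted p under 0.05 (limma, Benjamini-Hochberg), with 4.45% of tested genes higher and 8.53% lower in KO, and the median difference was -0.03 log2. After median centring of every array 383 genes were higher and 1321 lower, against 515 higher and 988 lower here.

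The members lie in 1 cluster on mouse chromosome 19, and their promoters are shown first because they show which members are alike before the start site. Of the 6 members, 5 had a RefSeq promoter entry (build GRCm38.p6), and Ms4a6d had none in the table used. The 250 bases before the start site are printed 5′ to 3′ for both pairs with closely alike windows. Capitals mark the longest run of letters that is identical within the pair.
Ms4a4b: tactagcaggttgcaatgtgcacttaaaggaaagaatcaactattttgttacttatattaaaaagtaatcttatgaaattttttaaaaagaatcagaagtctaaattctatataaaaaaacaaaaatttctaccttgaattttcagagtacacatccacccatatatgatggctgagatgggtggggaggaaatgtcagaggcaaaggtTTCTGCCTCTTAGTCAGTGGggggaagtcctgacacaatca
Ms4a4c: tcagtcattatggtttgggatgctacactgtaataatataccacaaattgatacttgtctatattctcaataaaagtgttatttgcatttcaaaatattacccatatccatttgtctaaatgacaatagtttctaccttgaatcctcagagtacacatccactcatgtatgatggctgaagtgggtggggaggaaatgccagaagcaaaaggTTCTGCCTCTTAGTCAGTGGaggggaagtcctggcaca
Ms4a6b: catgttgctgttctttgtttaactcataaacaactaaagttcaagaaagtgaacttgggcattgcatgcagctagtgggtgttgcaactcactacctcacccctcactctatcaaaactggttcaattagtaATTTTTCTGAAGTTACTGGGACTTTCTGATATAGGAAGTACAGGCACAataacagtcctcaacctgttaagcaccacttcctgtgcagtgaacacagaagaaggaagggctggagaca
Ms4a6c: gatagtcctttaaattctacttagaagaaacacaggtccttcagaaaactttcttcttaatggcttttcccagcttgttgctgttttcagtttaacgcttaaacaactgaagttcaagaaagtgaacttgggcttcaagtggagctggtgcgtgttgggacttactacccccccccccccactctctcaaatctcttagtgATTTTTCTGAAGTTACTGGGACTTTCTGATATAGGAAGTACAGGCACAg
These windows lie on the plus strand at chr19:11443308-11443557 (Ms4a4b), chr19:11407411-11407660 (Ms4a4c), chr19:11518309-11518558 (Ms4a6b) and chr19:11469118-11469367 (Ms4a6c).

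The Ms4a6b and Ms4a6c windows shared 149 of 175 aligned bases (85.1%) and an identical run of 48 bases. The Ms4a4b and Ms4a4c windows shared 183 of 232 aligned bases (78.9%) and a run of 20. Between any other 2 of the 5 windows the identity was 59.3% to 64.7% and the longest shared run 6 to 9 bases. Transcripts of close copies can bind each other's probes, but neither transcript nor probe sequences were compared here. Likeness of the windows does not measure this, and Ms4a6d had no window. The values of all 6 members, including Ms4a4b beside Ms4a4c and Ms4a6b beside Ms4a6c, are uncertain to that extent.

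A search on both strands of the same windows, with letters chosen after the sequences were seen, gave the following counts. The core CACCC, of the kind that KLF factors bind, occurred 2 times before Ms4a4b, 1 time before Ms4a4c, 2 times before Ms4a6b and 0 times before Ms4a6c, and 52.0% of 32851 promoter windows hold it. The letters GAAANNGAA, part of an IRF-type site, occurred 1 time each before Ms4a6b and Ms4a6c and 0 times before Ms4a4b and Ms4a4c, against 7.13% of all windows. The longer IRF-type element, with 1 more A at its end, and an NF-kB-type site were also searched and had 0 matches before these 4 genes, against 2.98% and 0.140% of all windows. The ETS-type core GGAAGT stood in each of the 4 windows, 2 times before Ms4a6b, against 19.7% of all windows. Windows within a pair are alike, so matches in both are not separate observations. The GGAAGT at -16 before Ms4a6c and that at -85 before Ms4a6b lie inside the identical run of 48 bases. Ms4a4d, whose window is not printed, held CACCC and GGAAGT 1 time each and the other letters 0 times. The hits do not overlap one another.

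**Figure D1:**
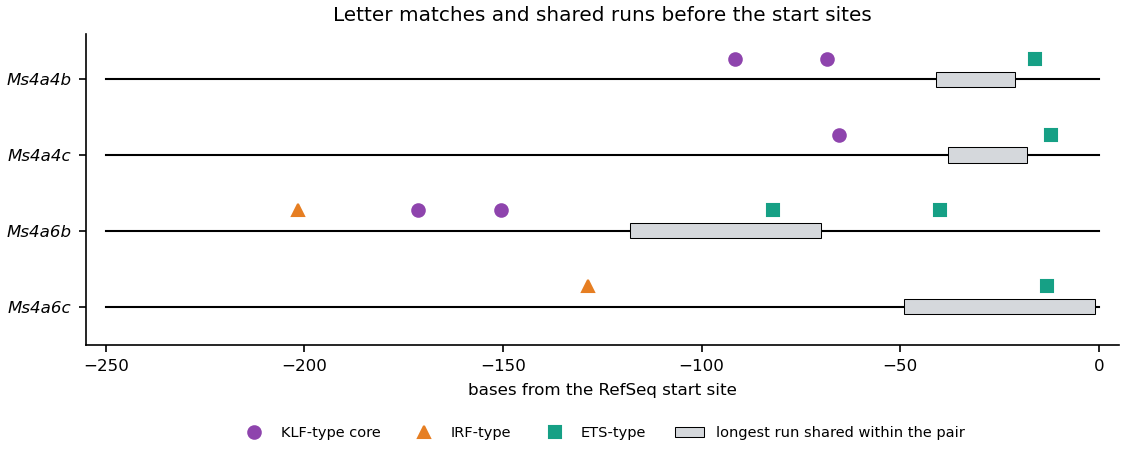
Position of letter matches (symbols, both strands) and of the longest shared run within each pair (grey boxes) in the 250 bases before the RefSeq start site, with distance in bases on the x axis. The shared run of 48 bases ends next to the start site of Ms4a6c and lies farther upstream of that of Ms4a6b.

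In KO thymocytes 3 of the 6 members rose, Ms4a6c 1.70-fold, Ms4a4b 1.46-fold and Ms4a6b 1.29-fold, and 0 fell (limma; Ms4a6d, below the filter, had an unadjusted p of 0.0177 with no filter). These were 3 of the 4 members that passed the filter, beside 4.45% of all tested genes called higher. Ms4a4c passed the filter without a call. Ms4a4d and Ms4a6d lay below it and were read from a fit with no filter. In bulk RNA a higher value can come from more cells that carry a transcript or from more transcript per cell, and these cannot be told apart here.

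Ms4a6c, known as a transcript of monocytes and macrophages, moved most. It stood at 8.72, 8.51, 8.23 and 8.41 log2 in the KO arrays, against 7.97, 7.45, 7.75 and 7.63 in the WT arrays. The lowest KO array was 0.26 above the highest WT array. Means were 8.47 ± 0.21 in KO and 7.70 ± 0.22 in WT (SD, n = 4 each), a difference of 0.77 ± 0.12 SE (limma, Benjamini-Hochberg adjusted p = 0.00516). In fold terms the 95% interval ran from 1.40 to 2.06. Ranked by size, this was number 44 of the 515 genes that rose, and 99.6% of tested genes had a smaller KO minus WT difference.

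Ms4a4b, which encodes the GITR-associated protein of T cells, stood at 10.01, 9.96, 9.93 and 10.13 log2 in the KO arrays, against 9.74, 9.38, 9.26 and 9.49 in the WT arrays. The KO arrays were close together and all above WT, while WT replicate 1 stood nearest to them. The difference was 0.54 ± 0.097 SE (limma, Benjamini-Hochberg adjusted p = 0.00777), with a 95% interval of 1.25-fold to 1.69-fold. It ranked 107 among the 515 rises.

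Ms4a6b, also a T cell transcript, stood at 11.25, 11.20, 11.22 and 11.14 log2 in the KO arrays, against 10.97, 10.69, 10.93 and 10.75 in the WT arrays. The genotypes did not overlap. The spread was 0.047 in KO and 0.14 in WT (SD, n = 4 each), and the difference 0.37 ± 0.070 SE, or 1.16-fold to 1.44-fold at 95% (limma, Benjamini-Hochberg adjusted p = 0.00999). Among all tested genes 6.79% had every KO array above every WT array, as these 3 members did.

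Ms4a4c, known as an interferon-inducible transcript, was not called and varied widely within each genotype. It stood at 7.61, 7.32, 7.72 and 7.94 log2 in the KO arrays, against 7.74, 7.21, 7.15 and 7.90 in the WT arrays. Of the WT arrays, 2 lay among the upper KO values and 2 below all KO arrays. The difference was 0.15 ± 0.18 SE, with a 95% interval from 0.834-fold to 1.47-fold that includes both no change and the fold of Ms4a4b (limma, Benjamini-Hochberg adjusted p = 0.645).

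The 2 dim members pointed in opposite directions, and neither was called. Ms4a4d stood at 5.18, 5.37, 5.14 and 5.55 log2 in the KO arrays, against 5.24, 5.13, 4.65 and 5.05 in the WT arrays (difference 0.29 ± 0.13 SE, limma with no filter, adjusted p = 0.268). Ms4a6d, a macrophage member, stood at 4.68, 4.85, 4.35 and 4.61 log2 in the KO arrays, against 5.09, 4.96, 4.77 and 4.85 in the WT arrays (difference -0.30 ± 0.11 SE, limma with no filter, adjusted p = 0.167). The genotypes overlapped for both. With both below the median of all probe sets, these data do not show that either transcript was present, and the arrays hold no earlier thymocyte stage against which maturation could be read.

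**Figure D2:**
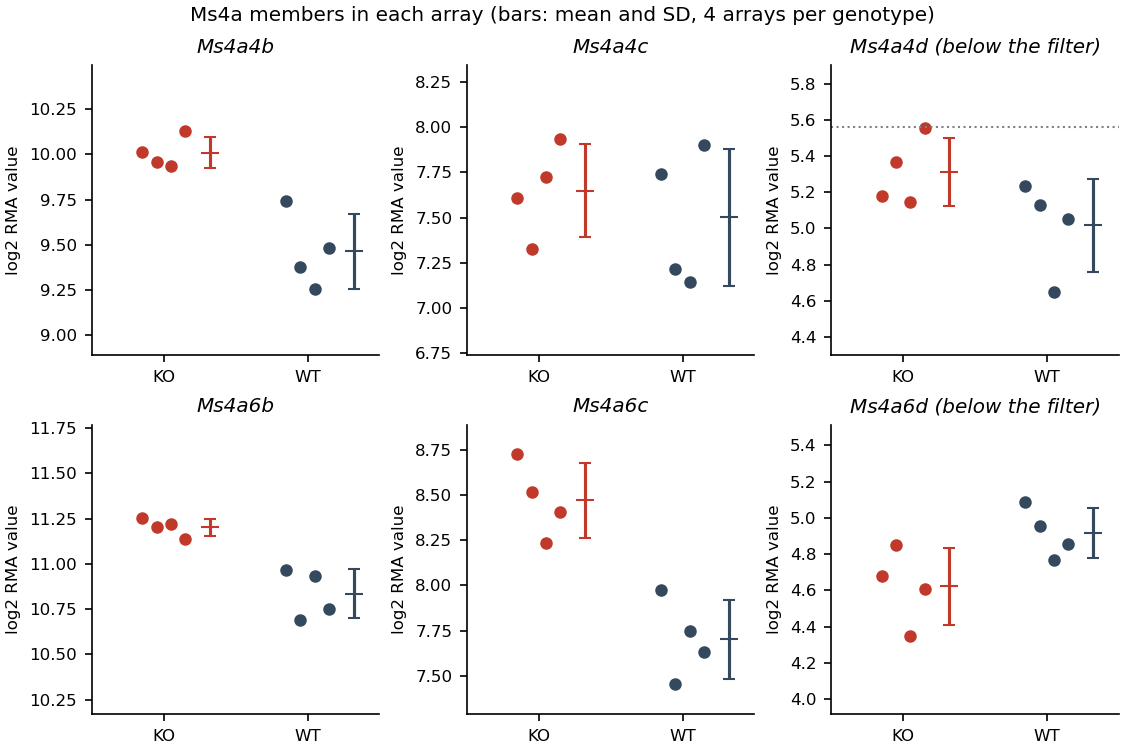
Log2 RMA values of the 6 members in each array, KO left of WT, with points for arrays and bars for mean and SD (4 arrays per genotype). Every panel spans the same log2 range around its own centre, and a dotted line marks the intensity filter of 5.56 where the panel reaches it. KO and WT points separate for Ms4a4b, Ms4a6b and Ms4a6c and overlap for the other members.

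Whether Ms4a4b shifted by another amount than each other member was tested on the per-array differences (two-sided exact permutation test, 4 against 4 arrays, 5 comparisons, smallest possible p 0.0286). Its shift exceeded that of Ms4a6d by 0.84 and that of Ms4a4c by 0.40 log2, each at an exact p of 0.0286, or 0.0714 adjusted over the 5 comparisons. Against Ms4a4d and Ms4a6b it was larger by 0.25 (exact p = 0.0857, adjusted 0.143) and by 0.18 (exact p = 0.2, adjusted 0.2). Against Ms4a6c it was smaller, at -0.22 (exact p = 0.143, adjusted 0.179). Ms4a6d and Ms4a4d lay below the filter, so the values against them do not show how those transcripts moved. None of the 5 passed the adjusted threshold, which with so few arrays needs several comparisons at the smallest possible p. A call for one member and not for another is thus not shown to be a difference between them.

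After the genotype means were subtracted from each array, Pearson's r over the 8 arrays was 0.73 for Ms4a6b with Ms4a6c and 0.71 for Ms4a4b with Ms4a4c. Without the 2 arrays farthest from the median these values were 0.41 and 0.70. The other pairs among the 4 brighter members gave -0.06 to 0.47, or 0.0088 to 0.45 without the 2 arrays farthest from the median. These are descriptions over 8 arrays that share their normalization, and binding to each other's probes was not tested.

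RefSeq lists 21 Ms4a genes in the cluster, between Ccdc86 and Oosp2, and 20 of them were measured. In the order of the chromosome, 5 consecutive genes rose, namely Ms4a4b, Ms4a6c, BE692007, Gm8369 and Ms4a6b. Over all tested genes 4.45% were called higher. Among measured genes Ms4a4c came directly before these 5 and was not called. Ms4a4d came directly after and lay below the filter, as did most other measured Ms4a genes, so it was not open to a call.

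The pair of genes between the members moved more than the members did. BE692007, a long noncoding RNA gene that overlaps Ms4a6c, stood at 8.10, 7.75, 8.27 and 8.06 log2 in the KO arrays, against 6.88, 6.91, 6.35 and 7.10 in the WT arrays. The KO arrays were all higher, by 1.23 ± 0.16 SE on average or 2.35-fold (limma, Benjamini-Hochberg adjusted p = 0.00160). Gm8369, a protein-coding gene known by its model number, stood at 7.54, 7.83, 7.32 and 7.46 log2 in the KO arrays, against 6.80, 6.59, 6.38 and 6.64 in the WT arrays. Again every KO array lay above WT, with a difference of 0.94 ± 0.115 SE or 1.91-fold (limma, Benjamini-Hochberg adjusted p = 0.00143). Strand was not examined, so signal from Ms4a6c transcripts and from BE692007, which overlap, cannot be told apart.

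The 14 other measured Ms4a genes gave no call. Of them 13 lay below the filter, and Ms4a15 passed it at 6.14 log2 with a difference of 0.03 (limma, Benjamini-Hochberg adjusted p = 0.789). With no filter 0 of the 14 had an adjusted p under 0.05, and 2 had an unadjusted p under 0.05, Ms4a18 at 0.23 log2 and Ms4a7, of macrophages, at -0.21. Ms4a1 (CD20) averaged 3.93 log2 over the 8 arrays, Ms4a2, the beta chain of the IgE receptor of mast cells, 3.76, and Ms4a3, of granulocyte and monocyte progenitors, 5.14. Ms4a4a, at 4.47, neighbours Ms4a4c and differed by -0.09. All 4 lay below the filter. The outer neighbours Ccdc86 and Oosp2 differed by -0.10 and 0.09 log2, and the long noncoding RNA genes AW112010 and 4930526L06Rik inside the cluster by 0.02 and -0.03. Ccdc86 and AW112010 were tested and not called, and Oosp2 and 4930526L06Rik lay below the filter.

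**Figure D3:**
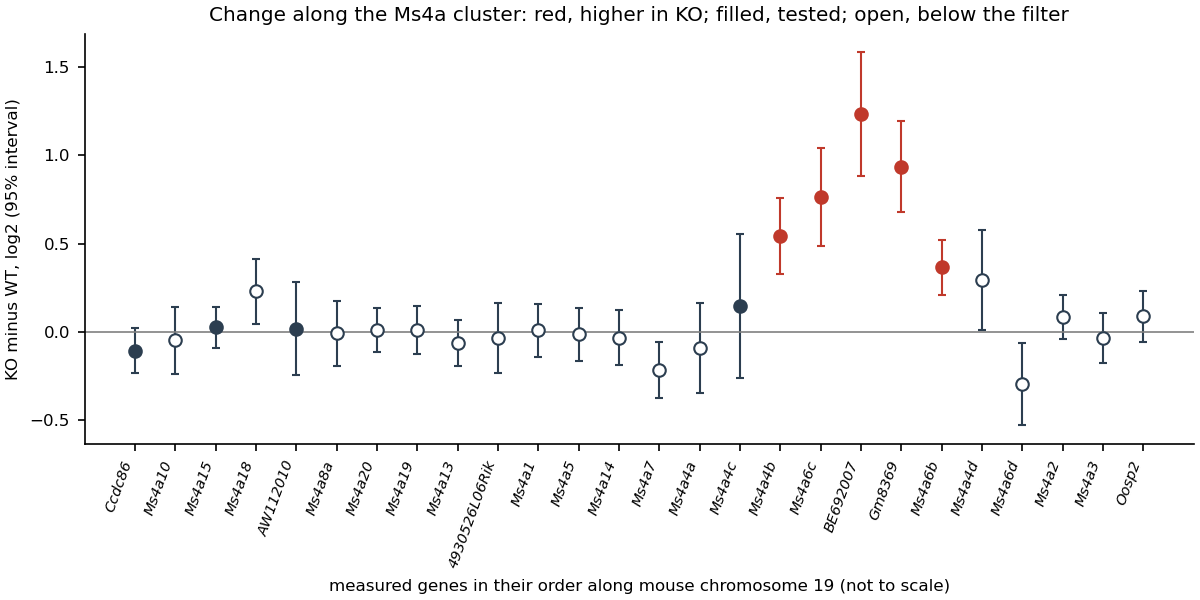
KO minus WT difference on the log2 scale, with 95% intervals, for each measured gene of the Ms4a cluster and its 2 neighbours in chromosomal order (not to scale). Filled points were tested, open points lay below the filter, and the 5 consecutive red points rose in KO, from 0.37 for Ms4a6b to 1.23 for BE692007.

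Genes that mark mature single-positive cells were set beside the members. Of 18 tested, 8 rose and 1 fell, against 4.45% and 8.53% of all tested genes, and their median difference was 0.13 log2 beside -0.03 for all tested genes. Their mean level ran from 10.65 to 10.69 in KO and from 10.29 to 10.40 in WT. Cd55, which restrains complement, rose 4.12-fold, Dapl1 2.40-fold, Tnfrsf26, a TNF receptor family member, 1.96-fold, and Klf2, the factor that drives the exit receptor S1pr1, 1.60-fold. S1pr1 itself rose 1.24-fold. The number of the list that rose was 6 to 8 with 1 array left out and 6 to 9 under the remaining settings. The fall was that of Gimap7, at 1.64-fold, whose arrays overlapped between the genotypes. Gimap7 lost its call in 9 of 17 other settings, among them the fit with no filter and the fits that dropped 1 array at a time from KO replicates 1, 2 and 4 and WT replicates 2, 3 and 4, where its adjusted p reached 0.0876.

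Genes of recent selection, which thymocytes lose as they mature, were lower or not called. Of 13 tested, 7 fell and 0 rose (limma, 0 higher at an unadjusted p under 0.05), with a median of -0.31 log2. Among all tested genes 8.53% fell and 4.45% rose. Cd24a, a surface protein lost on maturation, fell 1.69-fold. Sox4, a transcription factor, fell 1.48-fold, Egr1, an immediate-early factor, 1.28-fold, and Pdcd1, which encodes PD-1, 1.46-fold. These lists were made with results of the same arrays known, and part of their direction was therefore known when they were chosen.

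The transcript of the receptor that the Ms4a4b product associates with was lower in KO, and protein was not measured. Tnfrsf18, which encodes GITR, averaged 9.42 log2 in KO and 9.74 in WT, and fell by 0.32 ± 0.060 SE (limma, Benjamini-Hochberg adjusted p = 0.00979). Tnfrsf4, which encodes the related receptor OX40, fell 1.40-fold, whereas Traf5, an adapter of this receptor family, rose 1.60-fold. Tnfrsf9 stood at -0.30 log2 (adjusted p = 0.0730). Of 7 tested genes of this group 1 rose and 2 fell, against 4.45% and 8.53% of all tested genes. The group's median was -0.10 log2. Beside 8.53% of all tested genes called lower, the regulatory T cell list had 1 fall among 8 tested, that of Tnfrsf18 itself. This list had a median of -0.25. Its other genes were not called. Foxp3 stood at 0.17 and Nrp1 at 0.13 log2, while Izumo1r, Ikzf2, Ctla4, Lrrc32 and Il2ra stood between -0.30 and -0.13. At an unadjusted p under 0.05 (limma) 3 of the list were lower, Tnfrsf18 among them, and 0 higher.

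Interferon response genes, given because of Ms4a4c, were lower or not called. Of 19 tested, 6 fell and 0 rose (limma, 0 higher at an unadjusted p under 0.05), with a median of -0.34 log2. Among all tested genes 8.53% fell and 4.45% rose. Ms4a4c stood at 0.15 without a call. The mean level of the interferon list ran from 8.41 to 8.91 in KO and from 8.89 to 9.22 in WT. The exonuclease Isg20 fell 1.37-fold, the antiviral GTPase Mx2 1.53-fold, the RNA sensor Ifih1 1.26-fold and the ubiquitin-like Isg15 1.46-fold. How many passed depended on single arrays, and 10 fell when KO replicate 4 was dropped, 4 when KO replicate 1 was, 3 when WT replicate 4 was and 2 when KO replicate 3 was. The number was 9 after median centring and 2 both over all probe sets and with the heat-shock genes Hspa1a and Hspa1b averaged into a covariate. Isg15 and Ifih1 lost their calls in those last 2 fits and with KO replicate 3 dropped, as did Isg15 with WT replicate 4 dropped, at adjusted p values of 0.0657 or less.

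**Figure D4:**
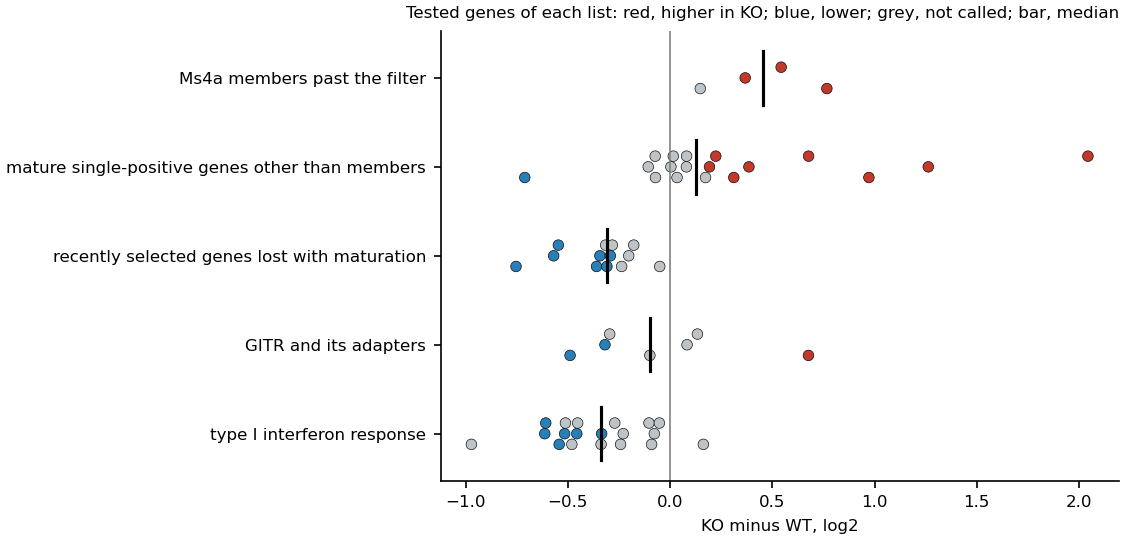
KO minus WT difference on the log2 scale of each tested gene, by list, with a black bar at the list's median. Red genes rose in KO, blue genes fell and grey genes were not called. The 4 members past the filter lie between 0.15 and 0.77, most called mature single-positive genes lie above 0, and called recent-selection and interferon genes lie below 0.

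Markers of other cells that express Ms4a6c or its relatives were mostly dim. Of 17 measured myeloid and dendritic cell markers 11 lay below the filter, among them Csf1r, Adgre1, Cd14, C1qa and Ccr2, and the mean level of the list ran from 5.28 to 5.49 log2 in KO and from 5.26 to 5.40 in WT. Of the 6 tested, Cd68 averaged 7.58 log2 in KO and 7.41 in WT, C1qb 6.48 and 6.52, and Tyrobp 6.15 and 6.28. Itgam averaged 6.20 in KO and 5.94 in WT, and Lyz2 5.56 and 5.86, and none of these was called. At an unadjusted p under 0.05 (limma) 2 were higher, Fcgr3 and Itgam, and 0 lower. The 1 call of the list, beside 4.45% of all tested genes called higher, was Fcgr3, an Fc receptor. Fcgr3 rose and averaged 5.97 log2 in KO and 5.42 in WT. The WT mean lay below the filter, so Fcgr3 was tested only through its KO level and no fold is given. Fcgr3 lost that call with the heat-shock covariate, over all probe sets, and when replicate 2 or 4 of either genotype was dropped, with 0.0769 as its highest adjusted p. Of 9 B cell markers 7 lay below the filter and 0 of the 2 tested changed (limma, 0 at an unadjusted p under 0.05), with list means of 5.11 to 5.18 in KO and 5.10 to 5.17 in WT. Of 10 mast cell, basophil and granulocyte markers 9 lay below it, and Kit fell 1.25-fold. Kit lost its call in 7 of 17 other settings, including each fit that dropped KO replicate 1, 2 or 4 or WT replicate 3, with 0.0847 as its highest adjusted p.

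Of 6 tested NK and innate-like T cell markers 1 rose and 3 fell, against 4.45% and 8.53% of all tested genes. The median of this list was -0.50 log2, and at an unadjusted p under 0.05 (limma) 1 was higher and 4 were lower. Klrd1 rose and averaged 7.93 log2 in KO and 5.03 in WT, a WT level below the filter against which no fold is given. Nkg7 fell 1.78-fold, Xcl1 1.54-fold and Zbtb16 1.61-fold, and Klrb1c, Ncr1, Klrk1 and Gzma lay below the filter. Tbx21 stood at -0.37 and Fcer1g at -0.03 log2, both uncalled. List means ran from 5.46 to 5.55 in KO and from 5.32 to 5.88 in WT. In the CD8 lineage list, with 6 tested, Prf1 rose 1.51-fold and Cd8a fell 1.67-fold, with means of 7.95 to 8.17 in KO and 8.08 to 8.39 in WT. Gzmk, Runx3, Cd8b1 and Eomes were not called and stood between -0.26 and -0.01 log2, and the list's median was -0.17. At an unadjusted p under 0.05 (limma) 1 of this list was higher and 3 were lower. The calls of Xcl1, Zbtb16 and Cd8a each ended in 8 or 9 of 17 other settings (adjusted p up to 0.106). The part of any of these cells in the rise of the members was not tested.

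The calls of the 3 members that rose were kept in all 17 other settings, 8 of which left out 1 array each. Over these settings the difference ran from 0.68 to 0.86 for Ms4a6c, from 0.47 to 0.64 for Ms4a4b and from 0.32 to 0.41 for Ms4a6b, with adjusted p up to 0.0193, 0.0262 and 0.0339 (limma, Benjamini-Hochberg). Ms4a4c stood at 0.03 with WT replicate 3 dropped and at 0.28 with WT replicate 4 dropped, both uncalled. Ms4a4d, also uncalled, stood at 0.17 with WT replicate 3 dropped, against 0.29 as reported. BE692007 and Gm8369 also kept their calls throughout (adjusted p up to 0.00784 and 0.00709).

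The arrays differed widely in heat-shock transcripts, signs of cell stress. Hspa1a, a chaperone gene, stood at 9.94, 9.27, 4.27 and 7.71 log2 in the KO arrays, against 4.84, 5.65, 8.00 and 6.04 in the WT arrays. The genotypes overlapped, with KO replicate 3 lowest and KO replicates 1 and 2 highest, and Hspa1a was not called (difference 1.67 ± 1.12 SE, limma, Benjamini-Hochberg adjusted p = 0.363). With Hspa1a and Hspa1b averaged into a covariate the difference was 0.69 for Ms4a6c, 0.57 for Ms4a4b and 0.36 for Ms4a6b, all 3 still called (limma, adjusted p = 0.0169, 0.0183 and 0.0313). Ms4a4c stood at 0.25 in that fit, without a call.

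**Figure D5:**
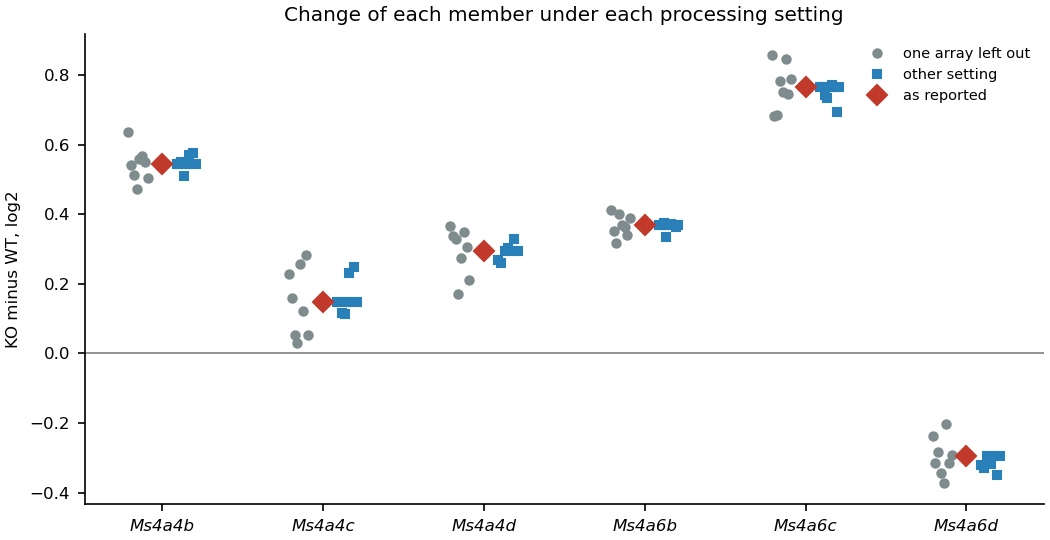
KO minus WT difference on the log2 scale of each member as reported (red diamonds), with 1 array left out (grey circles) and under the other settings (blue squares). No member changed sign, and Ms4a4c came closest to 0, at 0.03.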

How the data were processed

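RNA from sorted CD4SP thymocytes was amplified, biotinylated and read on Mouse Gene 2.0 ST arrays, 1 per sample, per the labels. The authors deposited log2 values per probe set, and the submitters' processing notes name RMA and Affymetrix Expression Console 1.1. The authors' genome build is not stated. The number of arrays limits the precision.

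Of 41345 probe sets, 23521 carried 1 gene symbol in a platform annotation, which can be old, 1814 several, and the others were not listed. The brightest probe set stood for each of 22180 genes. Groups came from the genotype label, and replicates were numbered in order of deposit.

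KO was compared with WT in limma 3.58.1 under R 4.3.3 (lmFit and eBayes, two-sided, no covariate), with Benjamini-Hochberg adjustment over the 11585 tested genes and standard errors (SE) from the fit. Promoter windows were aligned end to end, with end gaps free, in Biopython 1.88, and identity was counted over aligned bases. The script was tested on simulated data. Named genes were Pggt1b, every Ms4a gene, the other genes inside the cluster and its neighbours, up to 4 genes per list, and the 3 genes most like each brighter member. Cd4, Cd3e, S1pr1, Gimap7 and the other cell type markers were named after their values were seen. The members and lists were chosen with earlier results of these data known. Alternatives concerned the filter, probe set choice, scaling, array weights, prior, a heat-shock covariate and each array left out.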

Additional observations from a re-analysis of the deposited data

Results flagged for a closer look

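Among the KO arrays of Ms4a15, replicate 1 stood apart at 6.07 log2, below the others at 6.17 to 6.18, by more of the group's range than Dixon's test allows for 4 samples. Of 42 such groups, 2 for each Ms4a gene and for Pggt1b, this was the 1 that met the rule, and chance alone marks about 1 group in 20. The gap itself is small, and Ms4a15 was not called.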

How the results depend on the processing

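In each of the 17 other settings 3 of the 6 members changed, and no member changed sign. Settings for list genes and for BE692007 and Gm8369 were added after seeing the data. The number of changed genes over the whole table was 1503 as reported, and 920 with no intensity filter, 874 with the mean of the heat-shock genes Hspa1a and Hspa1b as a covariate, 996 over all probe sets, and 813 to 1441 with 1 array left out (lowest at 813 for KO replicate 1, then 888 for WT replicate 2, 933 for WT replicate 3 and 965 for KO replicate 3). With 1 array left out, the shift of Ms4a4b less that of another member was 0.27 to 0.46 log2 for Ms4a4c, 0.18 to 0.30 for Ms4a4d, 0.77 to 0.93 for Ms4a6d, 0.073 to 0.22 for Ms4a6b (lowest without WT replicate 3, against 0.18 as reported) and -0.31 to -0.14 for Ms4a6c (nearest 0 without KO replicate 1, against -0.22 as reported). Those against Ms4a4c, Ms4a4d and Ms4a6d passed the adjusted threshold without WT replicate 3 (0.44, 0.30 and 0.82, exact permutation, adjusted p = 0.0476) and in no other such setting. Against Ms4a4c and Ms4a6d the exact p was 0.0286, the smallest possible, both with all arrays and without WT replicate 3. Their adjusted value passed only because the comparison with Ms4a4d also reached that smallest p. No paired analysis was possible because the labels give no replicate numbers. Ms4a4d and Ms4a6d have no value under the filters. Background signal limits what can be read from dim probe sets, and the cause of the moved counts was not tested.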

Other observations

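For each of the 4 brighter members, the 3 tested genes whose deviations from the genotype means were most like its own were listed by Pearson's r over the 8 arrays, as a description. For Ms4a4b they were Ipmk, an inositol phosphate kinase, at 0.988, Fryl at 0.980 and Gdap10 at 0.974. For Ms4a4c they were Setbp1 at 0.981, Mllt3 at 0.974 and Crot, a fatty acid transferase of peroxisomes, at 0.965. For Ms4a6b they were Sox14 at 0.961, Iqank1 at 0.958 and Cdh15, a cadherin, at 0.947. For Ms4a6c they were Zfp954 at 0.979, the golgin gene Trip11 at 0.978 and the integrin subunit Itga4 at 0.972. Without the 2 arrays farthest from the median, r ran from 0.875 to 0.991, over arrays that had also served to pick the genes. Because the genes were picked for the highest r among tested genes, high values follow from the choice and show no link. Of the 12 genes 10 were not called. Itga4 rose by 0.84 ± 0.094 SE (limma, Benjamini-Hochberg adjusted p = 0.000877) and Trip11 by 0.23 (adjusted p = 0.0397), a call that 12 of 17 other settings ended (adjusted p up to 0.107). The lists of the 4 members share no gene.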
